A study of Mus musculus with 6 samples.

Results

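The genes described here are 10 members of the TNF receptor superfamily, chosen by name from the array annotation: Ltbr, Cd40, Tnfrsf11a, Tnfrsf12a, Tnfrsf13c, Cd27, Tnfrsf1a, Tnfrsf1b, Tnfrsf10b and Fas. They are 10 of 34821 gene names on the array and are measured by 13 of its 55681 probes. RNA came from sorted mouse LSK cells, a blood-forming fraction that lacks lineage markers, carries Sca-1 and c-Kit, and holds stem cells and multipotent progenitors. One group was wild type (samples 1, 3 and 5). The other was NIKaly/aly (samples 2, 4 and 6), with the aly allele on both copies of Map3k14, a germline point mutation that disables NIK in every cell of the mouse, so an effect outside LSK cells is part of this model. Each of the 6 samples was labelled with Cy3 and hybridised to its own one-colour array. Age, sex and the number of animals behind a sample are not given in the sources used here, so the spread that p-values measure here, between 3 samples a group, could be technical in part or whole.

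Receptors of this family are engaged by ligands of the TNF family and pass the signal on through TRAF adaptors or, where the tail holds a death domain, through death-domain adaptors. In resting cells a complex of TRAF3, TRAF2 and cIAP proteins keeps NIK at a low level by marking it for degradation. Receptors such as the lymphotoxin beta receptor, CD40, RANK, Fn14, BAFF receptor and CD27 can draw TRAF3 away, after which NIK accumulates, activates IKKalpha and starts the processing of p100 to p52. The receptors thus stand upstream of the defective kinase, and the comparison asks whether their transcripts differ between the genotypes.

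Each member was read by 60-base probes, and what a value means depends on where its probe lies. The first 30 bases are shown for the 4 members whose differences between genotypes are described at most length, for both probes of Tnfrsf13c, only the first of which was bright enough to test, and for Cd40, which gave no signal well above background. Positions are those of the array files on mm9. They are chr1:107741892-107741951 for Tnfrsf11a, chr14:70184141-70184200 for Tnfrsf10b, chr17:23812746-23812805 for Tnfrsf12a, chr6:125256614-125256673 for Ltbr, chr15:82052203-82052262 and chr15:82054616-82054675 for Tnfrsf13c probes 1 and 2, and chr2:164897085-164897144 for Cd40. The probes of Tnfrsf12a, Ltbr and Tnfrsf13c lie on the minus strand and the others on the plus strand. Whether they fall in coding exons was not analysed here. The letters are those of the array files, read 5′ to 3′, with no part singled out.
Tnfrsf11a: ccttgagagctaagttcaggtgaccttgtc
Tnfrsf10b: gatgtccttttctagtgtgtttgaagccag
Tnfrsf12a: agccttccaaggtgtccaattgccctatct
Ltbr: ggagagtttgggaacaggagaaaaatgaca
Tnfrsf13c probe 1: ctatgagtaagaagcttttctttgagctgg
Tnfrsf13c probe 2: atcagaccgagtgcttcgaccctctggtga
Cd40: gggtttctacctgtgtgttaccatttagtt

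Every value below is the log2 processed signal of a probe minus the 75th percentile of the same array, so 0 marks that percentile and levels are compared within a probe only. A probe is called well above background where the scanner software set that flag. Between 33.1% and 45.6% of the spots of an array carried it, and the lowest flagged value ranged from -4.23 to -1.58 between arrays. In the scanner software's quality summary, 2 arrays, wild type 1 and NIKaly/aly 6, carry a mark that asks for evaluation. Of 15 listed LSK markers 13, Kit and Ly6a (Sca-1) among them, were well above background on all 6 arrays. So were 12 of 12 mature neutrophil markers, 7 of 14 B cell markers and 6 of 13 T and NK cell markers, so detection alone does not tell LSK cells from a mixture. The neutrophil markers summed to 1156 to 7638 in wild type and 1262 to 4415 in NIKaly/aly. The summed signal of 11 erythroblast markers, in multiples of the 75th percentile, was 2645 and 1021 in samples 1 and 2 and 53.1 to 196 in samples 3 to 6. The LSK markers summed to 452 to 507 in wild type and 560 to 571 in NIKaly/aly, without overlap. Of 14 tested, 9 read higher and 5 lower in NIKaly/aly, and none passed in limma after adjustment. Procr (0.78 ± 0.28) and Lmo2 (0.29 ± 0.31; SE) were higher without overlap. Ly6a was lower (-0.68 ± 0.46; SE), with -0.73 between samples 1 and 2, -0.34 between 3 and 4, and -0.95 between 5 and 6. The part of these differences in the receptor values was not tested.

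Transcripts of 9 of the 10 receptors were measurable, and none passed the test between genotypes. The 9 had a signal well above background on 3 or more arrays, and 4 of them read higher and 5 read lower in NIKaly/aly. The median difference over the 9 was -0.17, beside -0.0081 over all 15682 genes tested. Tnfrsf11a (well above background on only 1 wild-type array), Tnfrsf10b and Tnfrsf12a read higher by 1.27, 0.62 and 0.42, and Fas, Ltbr and Tnfrsf13c read lower, at -0.48, -0.43 and -0.31. No member reached an adjusted p under 0.05 (limma with Benjamini-Hochberg adjustment over all tested genes; adjusted p = 0.99998 for each), and neither did any other gene (0%). One member, Tnfrsf11a, had an unadjusted p under 0.05, where 1.33% of all tested genes did (208 genes; those higher in NIKaly/aly were 0.619% and those lower 0.708%). The median absolute difference was 0.42 over the 9 members and 0.16 over all genes.

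**Figure D1:**
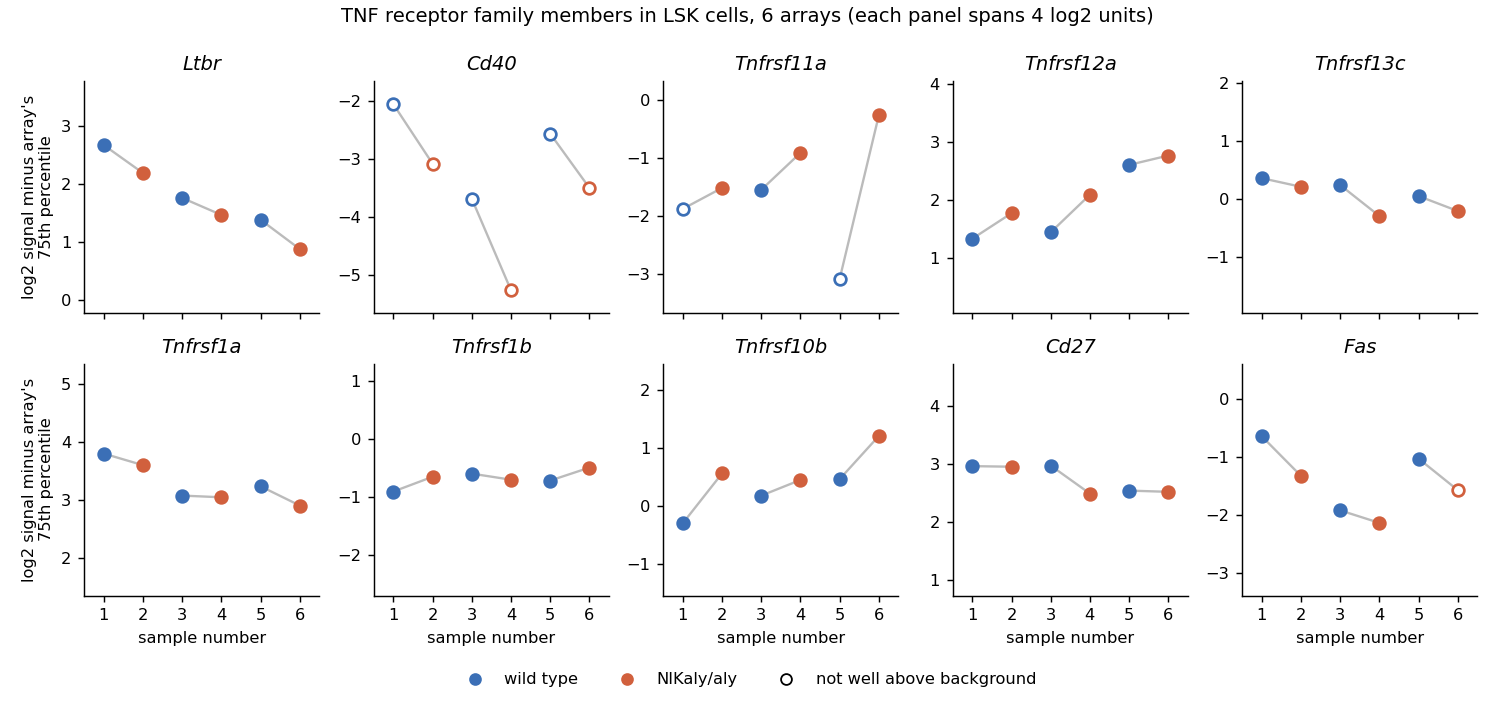
Log2 signal of each member relative to the 75th percentile of its array (vertical axis) in samples 1 to 6 (horizontal axis), with wild type in blue, NIKaly/aly in orange and open circles for values not well above background; grey lines join consecutive sample numbers and each panel spans 4 log2 units. Of the tested members only Tnfrsf11a has all 3 NIKaly/aly values above all 3 wild-type values, of which samples 1 and 5 are open. All 6 Cd40 values are open.

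Tnfrsf11a encodes RANK, the receptor for RANK ligand, best known for osteoclast formation and lymph node development. It read -1.88, -1.56 and -3.09 in the wild-type samples 1, 3 and 5. The NIKaly/aly samples 2, 4 and 6 read -1.52, -0.92 and -0.27. All 3 NIKaly/aly values lay above all 3 wild-type values, although the lowest of them, in sample 2, was close to the wild-type value of sample 3. Groups separated in this direction for 2.68% of all tested genes, in the other for 1.89% and in either for 4.57%, and no other tested member separated. Samples 1 and 5 of Tnfrsf11a were not well above background. Its probe passed the filter through the NIKaly/aly group, so the separation is a description only.

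The fitted difference in Tnfrsf11a was 1.27 ± 0.55 (SE, n = 3 per genotype), with a 95% interval from 0.0024 to 2.54 (limma, unadjusted p = 0.0497, adjusted p = 0.99998). The probe was dim, with a processed signal of 9.40 to 76.4 in wild type and 42.1 to 106 in NIKaly/aly. All 3 NIKaly/aly arrays but only 1 of the 3 wild-type arrays, sample 3, read it well above background, so the wild-type mean rests on 2 values without signal well above background, the size of the difference is not measured exactly and no fold is given. The probe passed the filter through the NIKaly/aly group, where it read higher. The difference was 0.36 between samples 1 and 2, 0.64 between 3 and 4, and 2.82 between 5 and 6. Samples 1 to 4, which fill slide row 1, gave 0.50, and the value was 0.82 without wild type 5 and 0.38 with normexp background correction. With slide column as a random block it was 1.53 and passed (limma, adjusted p = 0.0076), in a fit that called 1379 genes, 8.79% of those tested, at an estimated correlation of -0.88 between arrays of a column, each column holding 1 genotype. Macrophage and dendritic cell markers, another source of RANK transcript, summed to 122 to 219 in wild type and 86.3 to 175 in NIKaly/aly. Of the 13 names in that list 12 were on the array and 8 were tested. All 8 read lower, as did 8071 of all 15682 tested genes. Csf1r (-1.17 ± 0.33) and Itgax (-1.01 ± 0.38; SE) had groups that did not overlap, as 1.89% of all tested genes had in this direction. Both had an unadjusted p under 0.05 in limma (0.708% of genes, lower), though not after adjustment. Itgax and Emr1 were well above background on only 2 NIKaly/aly arrays. C1qb and C1qc were so on 2 wild-type arrays and 1 NIKaly/aly array, so these sizes are not exact. Siglech, the largest signal in the sum, differed by -0.17 ± 0.51 (SE). Cd163, Marco and Mrc1 were not well above background on any array. The part of these markers in the Tnfrsf11a result was not tested.

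Tnfrsf12a encodes Fn14, the receptor for TWEAK, a small receptor with a TRAF-binding tail that is induced by growth factors and tissue injury. The wild-type values were 1.33, 1.44 and 2.60 in samples 1, 3 and 5, against 1.77, 2.08 and 2.76 in NIKaly/aly samples 2, 4 and 6. The groups overlapped: wild type 5 exceeded both NIKaly/aly 2 and 4. Read by consecutive numbers, however, the NIKaly/aly sample was the higher one each time, by 0.44, 0.65 and 0.16. The difference of 0.42 ± 0.42 (SE; limma, adjusted p = 0.99998) was smaller than the SD of 0.70 among the wild-type samples. Leaving out wild type 1, 3 or 5 gave 0.19, 0.24 or 0.82, and leaving out NIKaly/aly 2 or 6 gave 0.64 or 0.14. It was -0.092 without the 2 arrays marked for evaluation.

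Ltbr encodes the lymphotoxin beta receptor, which needs NIK for lymph node formation. Wild-type samples 1, 3 and 5 read 2.67, 1.76 and 1.39, against 2.19, 1.47 and 0.88 for NIKaly/aly samples 2, 4 and 6. The level stepped down from samples 1 and 2 to samples 5 and 6 by more than it differed between genotypes, and the groups overlapped. The difference was -0.43 ± 0.44 (SE; limma, adjusted p = 0.99998), with a 95% interval from -1.45 to 0.60. Within consecutive samples it was -0.48, -0.29 and -0.50, a narrow range: the residual SD of Ltbr was 0.66 with genotype alone in the model and 0.082 once consecutive samples were a block. With that block 12.8% of all tested genes had a smaller residual SD than Ltbr. Leaving out wild type 1 or 5 gave -0.060 or -0.70, leaving out NIKaly/aly 2 or 6 gave -0.77 or -0.11, and without the 2 arrays marked for evaluation the sign turned (0.26).

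Tnfrsf13c encodes the BAFF receptor, through which mature B cells receive a survival signal that depends on NIK. Its brighter probe read 0.37, 0.25 and 0.057 in wild type, against 0.22, -0.29 and -0.20 for NIKaly/aly, samples in order of number. Only sample 2 of the NIKaly/aly group lay within the wild-type range, and the difference was -0.31 ± 0.29 (SE; limma, adjusted p = 0.99998). The second probe, 2413 bases away on mm9 and shown above beside the first, was well above background only in wild type 3, so it measures no difference. Tnfrsf13c is a B cell gene, and the 14 B cell markers summed to 35.2 to 152 in wild type and 17.9 to 79.0 in NIKaly/aly. Of these 14, 10 were tested and all 10 read lower, 0 of them at an unadjusted p under 0.05 in limma. Over all 15682 tested genes 8071 read lower. Cd79a, a part of the B cell receptor, averaged 1.63 in wild type and 0.27 in NIKaly/aly. Their part in the Tnfrsf13c values was not tested, and fewer cells of a type and less RNA per cell cannot be told apart in bulk samples.

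Cd27 encodes a receptor for CD70 that is present on T and B lymphocytes and on early multipotent progenitors. It was among the most even members: 2.96, 2.97 and 2.54 in wild type, against 2.95, 2.49 and 2.52 for NIKaly/aly. Samples 1, 2 and 3 formed an upper level and samples 4, 5 and 6 a lower one, a split that crosses genotype. The difference was -0.17 ± 0.27 (SE; limma, adjusted p = 0.99998), with a 95% interval from -0.80 to 0.46, and the second probe, 124 bases away, gave -0.18. On the brighter probe most of the difference came from samples 3 and 4 (-0.48), since samples 1 and 2 (-0.010) and samples 5 and 6 (-0.021) were nearly equal. The second probe was less uneven, with -0.30 between samples 3 and 4, -0.14 between 1 and 2, and -0.090 between 5 and 6.

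Cd40 encodes the receptor for CD40 ligand on B cells, macrophages and dendritic cells. Its single probe was not well above background on any of the 6 arrays, with a processed signal of 4.49 to 17.5. The wild-type values were -2.06, -3.69 and -2.56 and the NIKaly/aly values -3.08, -5.26 and -3.50. No fold is given, since both groups have only a bound.

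Tnfrsf1a and Tnfrsf1b encode the 2 receptors for TNF: the first carries a death domain and is found on most cells, and the second binds TRAF2 directly and is most abundant on blood cells. Tnfrsf1a read 3.80, 3.07 and 3.23 in wild type, against 3.60, 3.04 and 2.90 for NIKaly/aly. Its 2 highest values were in samples 1 and 2, and the difference was -0.19 ± 0.32 (SE; limma, adjusted p = 0.99998), which was 0.028 without wild type 1 and 0.17 without the 2 arrays marked for evaluation. The erythroblast, neutrophil, B cell, and T and NK cell marker sums were all highest in the same samples 1 and 2. That of macrophage and dendritic cell markers was lowest there. The part of these cell types in the Tnfrsf1a values was not tested.

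One Tnfrsf1a probe was printed 10 times on each array, which gives the error between spots within an array. The SD over its 10 spots was 0.041 to 0.073 log2 units, whereas the mean over spots moved from 3.83 in wild type 1 to 2.60 in NIKaly/aly 6. The SD covers the spots of an array only, not labelling or hybridisation. The other probe, 454 bases away, gave 3.80 and 2.90 on those 2 arrays, and the genotype differences of the 2 probes were -0.29 and -0.19. In NIKaly/aly 6 the 2.90 of the other probe lay above all 10 spots (2.50 to 2.71).

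**Figure D2:**
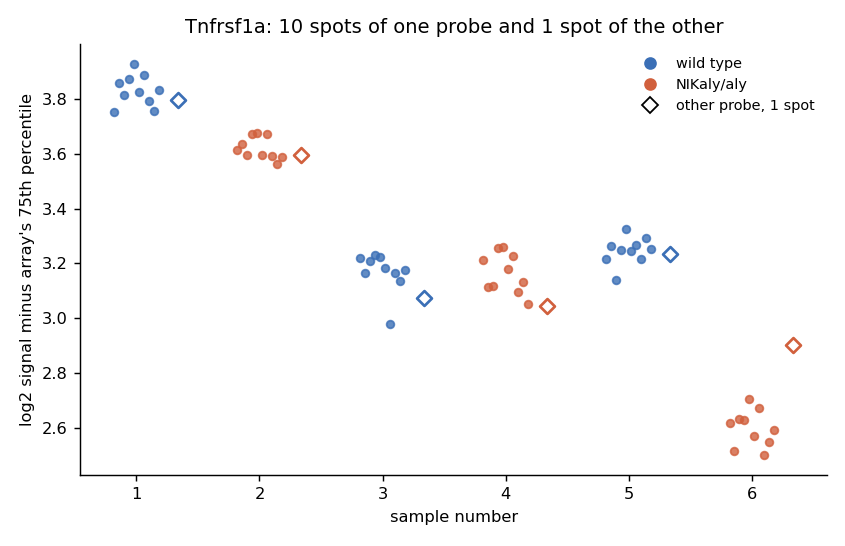
Log2 signal relative to the 75th percentile of the array (vertical axis) for the 10 spots of one Tnfrsf1a probe (filled circles) and the single spot of the other (diamonds) in samples 1 to 6, wild type in blue and NIKaly/aly in orange. The 10 spots of an array stay close together while arrays differ, from a mean of 3.83 in sample 1 to 2.60 in sample 6.

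Tnfrsf1b had the smallest range over the 6 arrays among the tested members. It read -0.91, -0.60 and -0.72 in wild type, against -0.66, -0.71 and -0.50 for NIKaly/aly, a range of 0.41 over the 6 arrays. The difference was 0.12 ± 0.31 (SE; limma, adjusted p = 0.99998), with a 95% interval from -0.58 to 0.83. With genotype alone in the model only 2.47% of all tested genes had a smaller residual SD than its 0.13. With consecutive samples as a block its residual SD was 0.14, and 29.7% of genes had a smaller one. Tnfrsf1b was the one tested member whose direction varied between consecutive samples (0.25, -0.10 and 0.22). Its sign turned with array weights (-0.023), with normexp correction (-0.013) and without the 2 arrays marked for evaluation (-0.020).

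Tnfrsf10b and Fas encode receptors that start apoptosis through a death domain, the first for TRAIL and the second for Fas ligand. Tnfrsf10b read -0.30, 0.17 and 0.46 in wild type, against 0.55, 0.44 and 1.20 for NIKaly/aly. The groups touched at one place, where wild type 5 (0.456) exceeded NIKaly/aly 4 (0.442). The difference of 0.62 ± 0.34 (SE, n = 3 per genotype; limma, unadjusted p = 0.10, adjusted p = 0.99998) corresponds to 1.54-fold, and its 95% interval ran from -0.15 to 1.40. It was 0.86, 0.27 and 0.74 within consecutive samples and 0.56 within slide row 1. Its direction was kept in every alternative run, but the size was 0.39 without NIKaly/aly 6, 0.35 with normexp correction, 0.31 with array weights and 0.18 without the 2 arrays marked for evaluation. With slide column as a random block Tnfrsf10b passed (0.77; limma, adjusted p = 0.014), as Tnfrsf11a did, in the fit that called 8.79% of genes at a correlation of -0.88.

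Fas read lower in NIKaly/aly. Its values were -0.65, -1.93 and -1.04 in wild type, against -1.33, -2.14 and -1.58 for NIKaly/aly, with overlap between the groups and the lowest value of each genotype in samples 3 and 4. The difference was -0.48 ± 0.47 (SE; limma, adjusted p = 0.99998) and the 95% interval ran from -1.57 to 0.61. Within consecutive samples it was -0.68, -0.22 and -0.54. The probe was dim, at a signal of 17.0 to 59.2, and on NIKaly/aly 6 it was not well above background. Its 2 spots differed little on 5 arrays (SD 0.074 to 0.13) and more on NIKaly/aly 4 (SD 0.38). The difference was -0.84 without wild type 3, -0.20 without wild type 1, -0.25 without NIKaly/aly 4 and -0.19 with normexp correction.

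Read by consecutive sample numbers, 8 of the 9 tested members had 1 direction throughout, as 30.1% of all tested genes had. Of the 9 tested members, 3 were higher in NIKaly/aly in all 3 consecutive pairs (Tnfrsf11a, Tnfrsf10b and Tnfrsf12a) and 5 were lower in all 3 (Ltbr, Fas, Tnfrsf1a, Tnfrsf13c and Cd27). Over all tested genes 13.8% were higher and 16.2% lower in all 3. This is a description of counts, and some differences inside it are near 0, such as -0.010 for Cd27 and -0.029 for Tnfrsf1a. The labels do not say that consecutive samples were handled together. Arrays with consecutive numbers were alike, however: the median residual SD over all genes was 0.50 with genotype alone and 0.22 with consecutive samples as a block.

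With that block the intervals of 4 members left 0 out: Tnfrsf10b (0.14 to 1.11), Tnfrsf11a (0.088 to 2.46), Tnfrsf12a (0.049 to 0.78) and Ltbr (-0.77 to -0.080). Their unadjusted p were 0.018, 0.038, 0.031 and 0.022 in limma, where 7.35% of all tested genes had an unadjusted p under 0.05 (3.26% higher and 4.09% lower). None passed the adjustment over all genes (limma, adjusted p = 0.51, 0.64, 0.60 and 0.55), and 0.0128% of genes did. The block narrowed the interval of Ltbr most and that of Tnfrsf11a least, with a residual SD of 0.72 that became 0.95 under the block. With the block 98.0% of all tested genes had a smaller residual SD than Tnfrsf11a. Its limma interval uses a variance drawn toward that of other genes, which is smaller here than its own. Its probe was not well above background in wild type 1 and 5 and passed the filter through the NIKaly/aly group, so the interval is not exact.

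**Figure D3:**
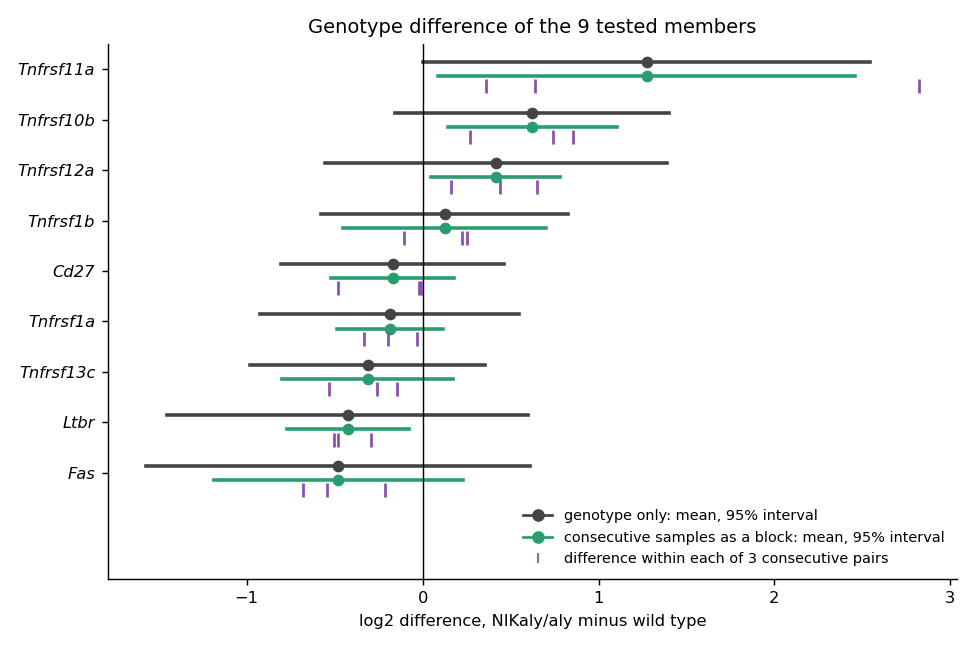
Log2 difference, NIKaly/aly minus wild type (horizontal axis), for the 9 tested members: mean and 95% limma interval with genotype alone (grey) and with consecutive samples as a block (green), and the difference within each of the 3 consecutive pairs (purple ticks). The green intervals of Tnfrsf11a, Tnfrsf10b, Tnfrsf12a and Ltbr leave 0 out, and the 3 ticks of Tnfrsf11a run from 0.36 to 2.82. Tnfrsf11a was not well above background in wild type 1 and 5, so its interval and ticks are not exact.

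The members fell into 2 loose patterns across the arrays. Ltbr, Fas, Tnfrsf1a, Tnfrsf13c and Cd27 all had their highest or, for Cd27, nearly highest value in wild type 1, whereas Tnfrsf12a and Tnfrsf10b had their lowest value there and their highest in NIKaly/aly 6. These are the arrays marked for evaluation. Their 75th percentiles of signal were also the lowest, at 47.0 and 50.8, against 80.2 to 225 on the others. The part of array quality in the patterns was not tested. Likeness was measured as the root mean square distance between array profiles after each gene's mean over the 6 arrays was taken away. The nearest pair of members was Tnfrsf13c and Cd27 (0.10), followed by Tnfrsf13c and Tnfrsf1a (0.21) and Tnfrsf1a and Cd27 (0.24). Tnfrsf12a and Tnfrsf10b were 0.30 apart. The largest distances were those of Tnfrsf11a to Fas (1.23) and to Ltbr (1.20), but samples 1 and 5 of Tnfrsf11a and sample 6 of Fas were not well above background, so these are not exact. These distances describe 6 arrays that share 1 slide, and genes with little spread are near each other for that reason alone.

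**Figure D4:**
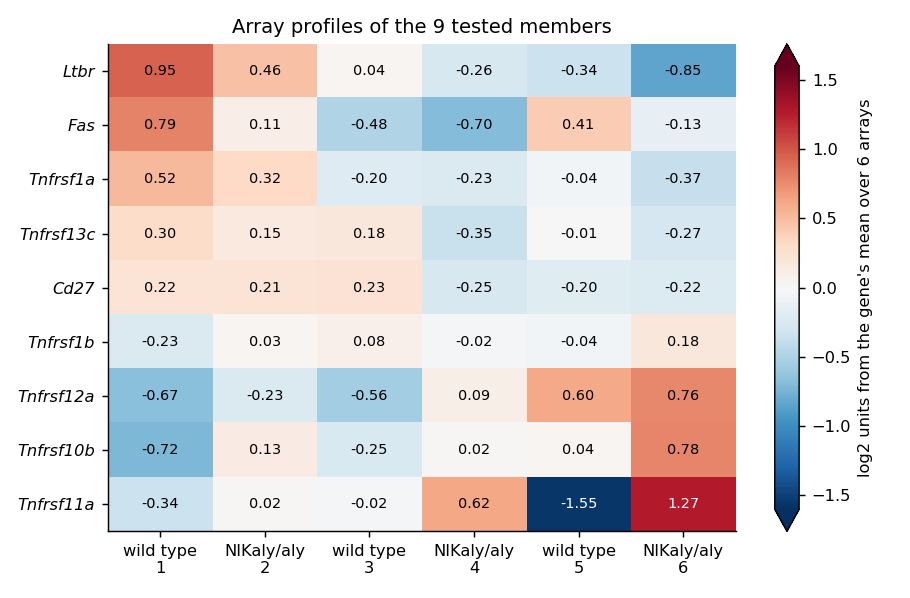
Log2 signal of each tested member (rows) in each sample (columns) as the distance from that gene's mean over the 6 arrays, red above and blue below. Ltbr runs from 0.95 in wild type 1 to -0.85 in NIKaly/aly 6, Tnfrsf12a and Tnfrsf10b run the other way, and Tnfrsf11a has the largest single distances, in samples 5 (not well above background) and 6. The arrays of wild type 1 and NIKaly/aly 6 are those marked for evaluation.

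Cd27, Ltbr and Tnfrsf1a are neighbours on chromosome 6. Their probes lie within 128906 bases on mm9, Cd27 and Ltbr 73538 bases apart and Ltbr and Tnfrsf1a 55308 bases apart. In the RefSeq gene table Scnn1a is the one protein-coding gene between Ltbr and Tnfrsf1a. All 3 read lower in NIKaly/aly in each consecutive pair, but their profiles were not alike in size: Ltbr spanned 1.79 over the arrays, Tnfrsf1a 0.90 and Cd27 0.48. Ltbr was 0.31 from Tnfrsf1a and 0.42 from Cd27.

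Other genes had profiles nearer to some members than any member had. The search covered all 15682 tested genes, of which only 9 are members. A nearer gene outside the list was thus all but certain and says nothing about the members. Among members well above background on all 6 arrays that spanned at least 1 log2 unit, Ltbr was nearest to Csk (0.059), an inhibitory kinase of Src family kinases, then to Pex10 (0.087) and Dpp3 (0.088), all 3 well above background on all 6 arrays. The matched genes had only to pass the filter of 3 arrays. For Tnfrsf10b the rule gave Fzd3 (0.11), which was well above background on 5 of 6 arrays, and then Trpc6 (0.13) and Nfkbid (0.14), the last a nuclear IkB protein, both on all 6. For Tnfrsf12a it gave Gm3561 (0.11), which was well above background on only 3 arrays, so that its likeness is not established, and then an entry that bears no gene name (0.13) and the clock gene Per1 (0.13), both on all 6.

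The other receptors of the superfamily showed no call either. Of 19 listed names, 18 were on the array and 9 were tested, 6 higher and 3 lower (median 0.10). Of these, 0 were past an adjusted p of 0.05 and 0 at an unadjusted p under 0.05 in limma. The smallest p values belonged to Tnfrsf14, the receptor for LIGHT (-0.66 ± 0.46), to Relt (-0.61 ± 0.47) and to Tnfrsf4, the costimulatory receptor OX40 (0.61 ± 0.52; SE). Tnfrsf14 was well above background on only 2 arrays of each genotype, so its size is not exact. Eda2r, Edar, Ngfr, Tnfrsf17 and Tnfrsf19 were not well above background on any array.

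Downstream of the receptors all 28 listed adaptors, kinases and regulators were well above background on every array. Of these, 15 read higher and 13 lower (median 0.025), with 0 past the adjusted threshold and 0 at an unadjusted p under 0.05 in limma. Tnfaip3, the ubiquitin-editing inhibitor A20, differed by 0.63 ± 0.43, Map3k7, which encodes TAK1, by -0.31 ± 0.26, and Cflar, the inhibitor of caspase-8 activation, by 0.28 ± 0.31 (SE). Map3k14 itself differed by 0.31 ± 0.48, and because aly is a point mutation the amount of its transcript is no check of the labels.

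The ligands of the 10 members were measured in part. Of 11, 6 were tested, 2 higher and 4 lower (median -0.16; 0 past the adjusted threshold and 0 at an unadjusted p under 0.05 in limma). Ltb, which with lymphotoxin alpha forms the ligand of the lymphotoxin beta receptor, differed by -0.58 ± 0.34, with 5.78, 5.08 and 4.78 in wild type, against 4.81, 4.47 and 4.62 for NIKaly/aly. Tnfsf12, encoding TWEAK, the ligand of Fn14, differed by -0.48 ± 0.41, and Tnfsf14, encoding LIGHT, by -0.12 ± 0.29 (SE). Lta, Cd40lg and Tnfsf11, which encodes RANK ligand, were not well above background on any array.

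The promoters were searched for the general kappaB motif of NF-kB dimers, 10 bases, on both strands. RefSeq windows on GRCm38.p6, from 250 bases before to 50 after the start site, were held for 8 of the 10 members. Cd40 and Tnfrsf10b had no window and were not searched. None of the 8 contained a match, where 8.46% of 32851 windows of the same length did. No match says only that these letters are not in this window.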

How the data were processed

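The members and gene lists were chosen with earlier results of these data known. Per the file headers, the authors read spot intensity from the scans with Agilent Feature Extraction (version 10.7.3.1) and placed probes on mm9. The deposited intensity columns hold a background-subtracted processed signal, beside flags. The authors' deposited series table holds a signal per spot, which equals the processed signal divided by the median of the array's 59305 non-control spots; it was used as an alternative.

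Here the 75th percentile of an array's non-control spots was taken from its log2 processed signals. Control spots and outlier-flagged spots were left out, spots of a probe were averaged, and no spot was saturated. Probes well above background on at least 3 of 6 arrays were tested (21239), and the brightest probe by mean over all arrays stood for each of 15682 genes. The genotype test was that of limma 3.58.1 under R 4.3.3 (lmFit, eBayes with trend, two-sided, Benjamini-Hochberg). The fit was checked on simulated data. All 10 members are named; from each other list of receptors, adaptors or ligands the 3 smallest p, plus Map3k14; as genes of like pattern, the 3 nearest profiles. The number of arrays limits precision. Alternatives changed scaling, background, filter, probe rule, outlier spots, variance trend, weights, slide row or column, a block of consecutive samples, and left out arrays.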

Additional observations from a re-analysis of the deposited data

How the results depend on the processing

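Over 23 alternatives, 1 of them added after the data were seen (leaving out the 2 arrays marked for evaluation), 205 member differences were computed; 196 kept their direction and stayed short of the threshold in limma, and 2 kept it and passed. Turned in sign were Ltbr (0.26), Tnfrsf12a (-0.092), Tnfrsf1a (0.17) and Tnfrsf1b (-0.020) without the arrays marked for evaluation, Tnfrsf1b with normexp (-0.013) and array weights (-0.023), and Tnfrsf1a without wild type 1 (range leaving out 1 array, -0.40 to 0.028). With slide column as a random block 1379 genes passed, 2 of them members, Tnfrsf11a (1.53) and Tnfrsf10b (0.77). Columns lie within a genotype, and the estimated correlation was -0.88. The SE in this fit was 0.21 for Tnfrsf11a and 0.13 for Tnfrsf10b, against 0.55 and 0.34 with genotype alone. The cause of the added calls was not tested. Past the threshold were 10 genes with median scaling, 9 with the authors' table, 5 with array weights, 2 without a filter, 2 with consecutive samples as a block, 2 without the arrays marked for evaluation, 1 with normexp and 0 to 1 leaving out 1 array; in these settings no member passed. Tnfrsf11a and Fas have no value where a gene had to be well above background on all 6 arrays. Dim probes (Cd40, Tnfrsf11a, Fas) are limited by signal over background.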
